A study of Mus musculus with 6 samples.

Results

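STAT5 and its feedback circuit were followed here as 10 transcripts of mouse leukaemia cells: the transcription factor genes Stat5a and Stat5b, the kinase gene Jak2, the feedback inhibitor genes Socs1, Socs2, Socs3 and Cish, and the target genes Il2ra, Pim1 and Pim2. A probe set, the group of array probes that gives 1 value per array, was taken for a gene when its annotation held that gene's symbol and no other. This found 12 probe sets for the 10 genes, out of 21789 probe sets for 19938 genes on the array. Socs2 and Socs3 each had a pair of probe sets, and the brighter one stood for the gene. The cells were C57BL/6 pre-B cells transformed by BCR-ABL1, the kinase fusion that drives Philadelphia chromosome-positive acute lymphoblastic leukaemia, and all of them carried floxed Inpp5d (fl/fl). The gene Inpp5d encodes the lipid phosphatase SHIP1. A group of 3 arrays held cells transduced with PMIP-CRE-ERT2, a Cre recombinase that tamoxifen switches on, and the control group of 3 arrays held cells transduced with PMIP-ERT2, which has the tamoxifen-binding part without Cre. Both groups received 0.5 µM 4-hydroxytamoxifen, and RNA was extracted from puromycin-resistant cells after 2 days. No arm had Cre without floxed alleles or lacked tamoxifen, and the sources used here give no age for the mice. Separate cultures are not stated for the 3 arrays of a group, and the p-values therefore cover the spread between these arrays alone, which may be technical.

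STAT5 proteins wait in the cytoplasm until a tyrosine kinase phosphorylates them, after which they pair, enter the nucleus and bind DNA. In normal pre-B cells that kinase activity comes from JAK enzymes at cytokine receptors such as the interleukin-7 receptor, whereas BCR-ABL1 drives STAT5 phosphorylation without a cytokine. Among the genes that STAT5 switches on are its own brakes: CIS, encoded by Cish, and the SOCS proteins bind receptors or JAK enzymes and damp the signal. RNA arrays read the transcripts of this circuit and not the phosphorylation of STAT5. The RNA of the feedback and target genes was therefore measured, and the activity of STAT5 was not.

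Some facts about the arrays bear on every value below. Values are on the log2 scale, as deposited. Inpp5d itself did not fall under the CRE-ERT2 label: its values were 13.37, 13.34 and 13.34 there and 13.20, 13.21 and 13.17 in the controls (difference 0.16 ± 0.041, SE; limma adjusted p = 0.0545), so "CRE-ERT2 arrays" means arrays with that label and not cells shown to lack Inpp5d. No source used here says if the single Inpp5d probe set lies in the deleted exons, and a probe set outside them checks nothing. CRE-ERT2 array 3 correlated more closely with control arrays 3 and 1 (Pearson's r across probe sets = 0.9967 and 0.9963) than with arrays 1 and 2 of its own label (0.9938 and 0.9950). Differences between the groups also moved with brightness: the median change was 0.12 in the third of 10 brightness classes of genes and -0.061 in the seventh, and 0.026 over all 14953 genes tested. All 10 genes of the STAT5 circuit lay in classes 7 to 10, where the median ran from -0.061 to -0.0090. Of 12 pre-B markers, 11 had a probe set of their own, all were bright (mean log2 values from 10.18 for Rag1 to 14.33 for Igll1), and 1 of them, Dntt, rose. Markers of T and NK cells ranged from 6.16 (Ncr1) to 8.27 (Foxp3) in mean log2 value. Of these 12 markers 6 were bright enough to test, and 0 passed limma's test, but 4 were higher and 0 lower at an unadjusted p under 0.05. Of 12 myeloid markers 5 were tested, and 2 rose: Lyz2 by 0.79 (limma adjusted p = 0.00588) and Cebpa by 0.27 (0.0237). Without overlap, 5 of the 12 were higher and 1 lower, against 20.7% and 17.7% of all genes tested. The lower marker was Fcgr1, which did not pass (-0.26, limma adjusted p = 0.0563). At an unadjusted p under 0.05, 2 myeloid markers were higher and 1 lower. Over all 14953 genes tested, 2842 were higher and 2151 lower at that unadjusted limma threshold.

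Neither STAT5 gene nor Jak2 passed the test. Stat5a had log2 values of 10.99, 11.04 and 11.00 in the controls and 11.05, 11.01 and 11.02 in the CRE-ERT2 arrays. Its groups overlapped, and the difference was 0.017 ± 0.043 (SE; 95% interval -0.081 to 0.12; limma adjusted p = 0.797). Stat5b, which lies beside Stat5a on chromosome 11 and encodes a closely related protein, had 10.86, 10.83 and 10.85 in the controls and 10.84, 10.78 and 10.85 in the CRE-ERT2 arrays. These values overlapped too, with a difference of -0.027 ± 0.044 (interval -0.13 to 0.074, adjusted p = 0.677). The intervals leave room for log2 changes of up to 0.12 for Stat5a and down to -0.13 for Stat5b. Because the Stat5 genes are so alike, signal shared between their probe sets cannot be told apart in these summarized values.

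Jak2, the cytokine receptor kinase, was the most variable of the 10 genes within groups. Its log2 values were 10.14, 10.28 and 10.09 in the controls and 10.26, 10.02 and 10.21 in the CRE-ERT2 arrays. Both groups covered nearly the same range, with SDs of 0.10 and 0.13 (n = 3 each), and the difference was -0.0087 ± 0.076 (interval -0.18 to 0.17, adjusted p = 0.944). For Jak2 the sign of so small a difference turned with the arrays used, to 0.048 without control array 2 and to 0.064 without CRE-ERT2 array 2.

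The feedback inhibitors Socs1, Socs3 and Cish rose, while Socs2 did not pass. Socs1, whose protein blocks the catalytic site of JAK enzymes, had log2 values of 10.33, 10.46 and 10.40 in the controls. In the CRE-ERT2 arrays its values were 10.66, 10.67 and 10.76. The groups did not overlap, and Socs1 was 1.24-fold higher (log2 difference 0.305 ± 0.053, SE; interval 0.18 to 0.43; limma adjusted p = 0.0203). Socs3, a SOCS protein that docks on gp130-type receptors, had 10.47, 10.44 and 10.43 in the controls and 10.62, 10.68 and 10.79 in the CRE-ERT2 arrays. Again the groups did not overlap, and the controls were closely spaced (SD 0.022 against 0.083, n = 3 each). The rise of Socs3 was 1.19-fold (0.25 ± 0.053, interval 0.13 to 0.37, adjusted p = 0.0333).

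Cish, which encodes CIS and is among the best known STAT5 target genes, had log2 values of 11.64, 11.50 and 11.61 in the controls and 11.83, 11.80 and 11.82 in the CRE-ERT2 arrays. The spread was the reverse of that of Socs3: the CRE-ERT2 arrays were nearly equal (SD 0.017) and the controls were not (SD 0.075). Cish was 1.18-fold higher without overlap (0.23 ± 0.051, interval 0.12 to 0.35, adjusted p = 0.0350). CRE-ERT2 array 3, the one that correlated most with controls, had the highest Socs1 and Socs3 values, and all 3 rises kept their calls without it (Socs1 0.27, Socs3 0.21 and Cish 0.23; adjusted p = 0.0240, 0.0317 and 0.0363). With another array left out, Socs1 lost its call without control arrays 1 or 3 or CRE-ERT2 array 1 (adjusted p = 0.105, 0.0555 and 0.0679). Socs3 and Cish lost theirs without any of the other 5 arrays, at 0.0583 (without CRE-ERT2 array 2) to 0.128 (without control array 1) for Socs3 and at 0.0606 (without CRE-ERT2 array 2) to 0.114 (without CRE-ERT2 array 1) for Cish. When arrays were centred on their medians, which moved the median of all genes to -0.077, none of the 3 passed, with differences of 0.20, 0.15 and 0.13. Without the filter on dim genes Socs3 and Cish narrowly missed the threshold (limma adjusted p = 0.0609 and 0.0650) and Socs1 passed.

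Socs2, a SOCS protein known for restraining growth hormone signalling, was measured by probe sets that did not read alike. The brighter one had log2 values of 13.37, 13.42 and 13.31 in the controls and 13.40, 13.37 and 13.37 in the CRE-ERT2 arrays. Its groups overlapped, with a difference of 0.015 ± 0.046 (SE; adjusted p = 0.830). The dimmer one had 10.92, 10.89 and 10.91 in the controls and 11.04, 10.96 and 10.98 in the CRE-ERT2 arrays. There the groups did not overlap, but the difference of 0.089 ± 0.043 did not pass either (limma adjusted p = 0.184 over all probe sets). On this array probe sets with neighbouring numbers usually belong to neighbouring genes, and the Socs2 gene is on chromosome 10 in the RefSeq table. Of the 20 annotated probe sets numbered nearest to the dimmer one 19 belong to genes of chromosome 10, but 17 of the 20 nearest to the brighter one belong to chromosome 12. Whether the brighter probe set reads the Socs2 transcript was not tested. The same look at Socs3, a gene of the minus strand, placed its brighter probe set among genes of that strand (14 of 14 with a known strand). The dimmer Socs3 probe set lay among genes of the plus strand (14 of 14), had overlapping groups (8.46, 8.64 and 8.59 against 8.91, 8.64 and 8.54) and did not pass (0.13 ± 0.095, adjusted p = 0.341). With the mean of both probe sets Socs3 missed the threshold (0.19, adjusted p = 0.0516).

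**Figure D1:**
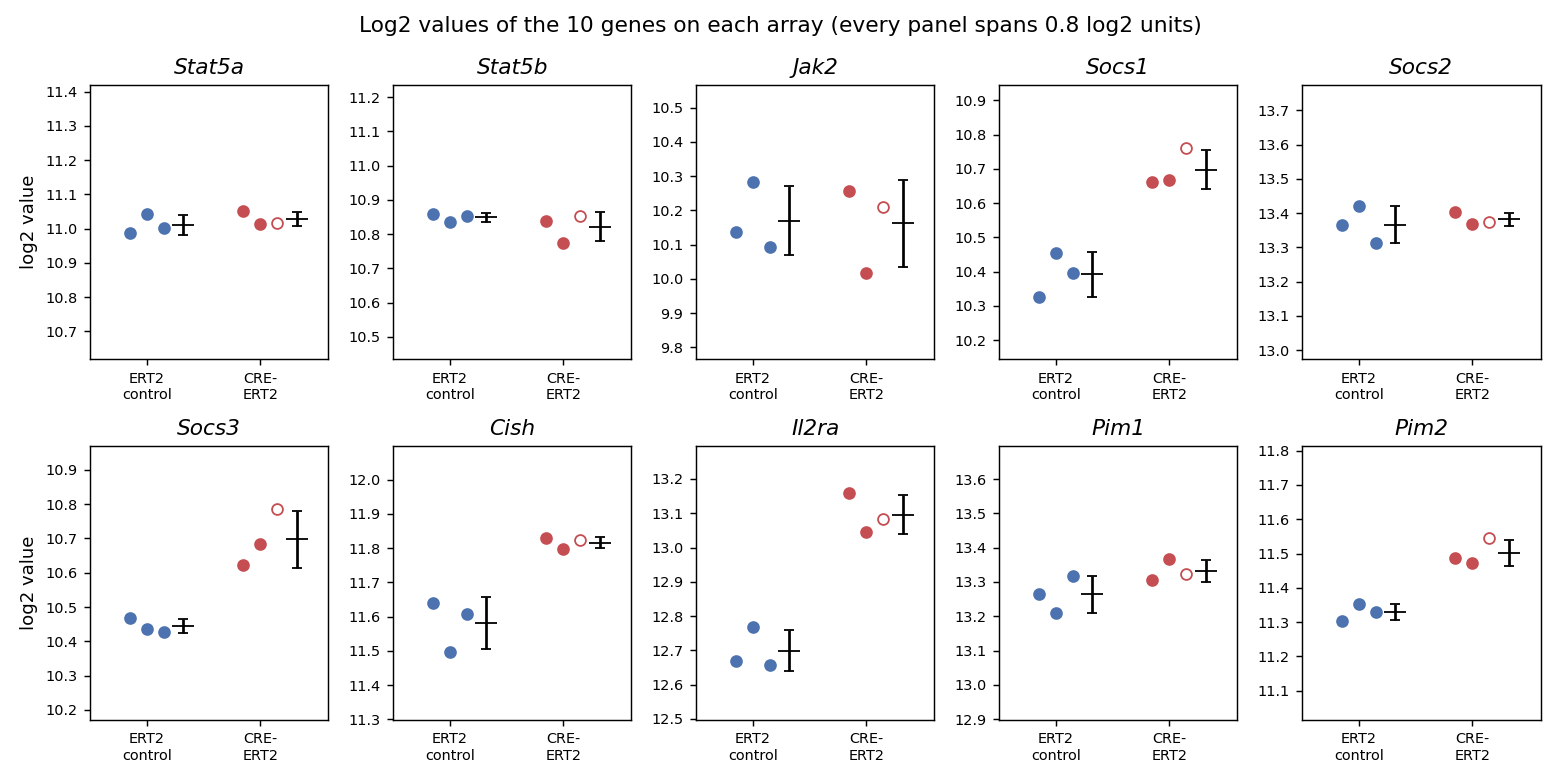
Log2 values of the 10 genes on each array. Filled circles are single arrays (controls blue, CRE-ERT2 red), the open circle is CRE-ERT2 array 3, and the black bars are the mean ± SD of 3 arrays; each panel has its own level but the same span. The red points lie above all blue points for Socs1, Socs3, Cish, Il2ra and Pim2, and overlap them for the other 5 genes.

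Socs1, Socs3 and Cish were also set against Socs2 on the same array. Such a ratio cancels an offset common to all probe sets of an array, but not a shift that depends on brightness, and Socs1 and Socs3 (class 7) and Cish (class 9) were dimmer than the brighter Socs2 probe set (class 10). The log2 ratio of Socs1 to the brighter Socs2 probe set ran from -3.04 to -2.92 in the controls and from -2.74 to -2.61 in the CRE-ERT2 arrays, a difference of 0.29. For Socs3 and Cish the ratio differed by 0.24 and 0.22, and against the dimmer Socs2 probe set the differences were 0.22 (Socs1), 0.16 (Socs3) and 0.15 (Cish). In all 6 of these ratios the groups did not overlap. The ratio of Socs1 to the brighter Socs2 probe set differed by 0.32 after quantile normalization and by 0.31 after loess. An exact two-sided permutation test gave p = 0.10 for each, the smallest that 3 against 3 arrays allow, and 0.133 after Benjamini-Hochberg adjustment over 8 ratios. The ratios were chosen after the values were seen and set genes that had passed against one that had not. Separate groups were therefore likely beforehand, and the ratios are a description. None passed after adjustment, and they do not tell which transcript stayed the same. Of the other 2 ratios, Stat5a to Stat5b differed by 0.044 and Pim2 to Pim1 by 0.11, and in both the groups overlapped (exact permutation p = 0.20 each).

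STAT5 pairs bind DNA at a sequence with the consensus TTCNNNGAA, which reads the same on both strands. The 300 bases around the RefSeq gene start (250 before it and 50 after it, build GRCm38.p6) were searched for these letters, with 12 windows available for 9 of the 10 genes. Cish and Socs3 held the motif, and the windows of Stat5a, Stat5b, Jak2, Socs1, Il2ra, Pim1 and Pim2 did not. In all, 8.30% of the 32851 windows of the RefSeq table hold the motif and 0.457% hold it at least 2 times. Counted by gene, 9.55% of the genes of the RefSeq table hold it, against 2 of the 9 genes here. The Cish window held 2 matches, at bases 1 to 9 and 12 to 20 of the annotated transcript and 2 bases apart. The match of Socs3 began 154 bases before the start. Both stretches are shown because they are from the feedback genes that rose and hold the motif, which stands in capitals. A match describes the letters and is not evidence of binding, and windows without a match say nothing about sites farther away.
Cish, chr9:107296559-107296678, plus strand: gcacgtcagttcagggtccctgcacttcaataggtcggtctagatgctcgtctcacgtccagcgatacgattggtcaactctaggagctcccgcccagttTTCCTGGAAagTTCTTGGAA
Socs3, chr11:117969457-117969576, minus strand: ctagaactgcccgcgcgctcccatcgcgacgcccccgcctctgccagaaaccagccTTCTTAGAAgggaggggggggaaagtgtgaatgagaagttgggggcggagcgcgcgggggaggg

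Il2ra rose most among the 10 genes. It encodes CD25, the alpha chain of the interleukin-2 receptor, a STAT5 target that pre-B cells also carry on their surface. Its log2 values were 12.67, 12.77 and 12.66 in the controls and 13.16, 13.05 and 13.08 in the CRE-ERT2 arrays. All of the latter lay above all controls. Il2ra was 1.32-fold higher (log2 difference 0.40 ± 0.052, SE; interval 0.28 to 0.52; limma adjusted p = 0.00711) and brighter than 97.7% of genes. By size its change exceeded that of 98.4% of all genes tested, and by p it ranked 110. Il2ra passed with 5 of 6 arrays left out in turn; without control array 1 the adjusted p was 0.0542. CD25 is also carried by T cells, and the summed linear level of the T and NK markers ran from 1839 to 1933 in the controls and from 1964 to 2164 in the CRE-ERT2 arrays, with a median change of 0.16 over 12 genes. The groups did not overlap for 4 of the 12, all higher in the CRE-ERT2 arrays, as for 20.7% of all genes tested. Markers of stromal cells showed the same: their sum ran from 2201 to 2335 in the controls and from 2390 to 2732 in the CRE-ERT2 arrays. Of these 8 stromal markers 6 were higher without overlap and 0 lower. Among the 8, 2 were too dim to test and 6 lay in brightness classes 1 to 5. For the 12 myeloid markers the sum ran from 2250 to 2375 in the controls and from 2844 to 2939 in the CRE-ERT2 arrays. Of the CD3 chains, which define T cells, Cd3e had group means of 8.14 (controls) and 8.20 (CRE-ERT2; limma adjusted p = 0.411), and Cd3d and Cd3g were too dim to test. The T and NK markers that were higher at an unadjusted p under 0.05 were Cd4, Cd8a, Foxp3 and Nkg7, by 0.14 (Nkg7) to 0.18 (Cd8a). The 6 tested T and NK markers lay in brightness classes 1 to 3, where the median change of all genes was 0.11 to 0.12. The part of such cells in the Il2ra result was not tested. In RNA from bulk cells a different number of cells of a kind and a different amount of RNA per cell cannot be told apart.

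The Pim kinases, survival kinases whose genes answer to STAT5, were less clear. Pim2 had log2 values of 11.30, 11.35 and 11.33 in the controls and 11.49, 11.47 and 11.55 in the CRE-ERT2 arrays. The groups did not overlap, but the difference of 0.17 ± 0.044 (SE; interval 0.071 to 0.27) narrowly missed the threshold (adjusted p = 0.0526). Pim2 passed in 5 of 10 other settings, with limma adjusted p from 0.0151 to 0.0342, among them loess between arrays. Leaving out each array in turn gave limma adjusted p from 0.0618 to 0.197 for Pim2, and its unadjusted limma p over all 6 arrays was 0.00426. Pim1 had 13.27, 13.21 and 13.32 in the controls and 13.31, 13.37 and 13.32 in the CRE-ERT2 arrays. These groups overlapped, and the difference was 0.067 ± 0.047 (interval -0.041 to 0.18, adjusted p = 0.330).

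**Figure D2:**
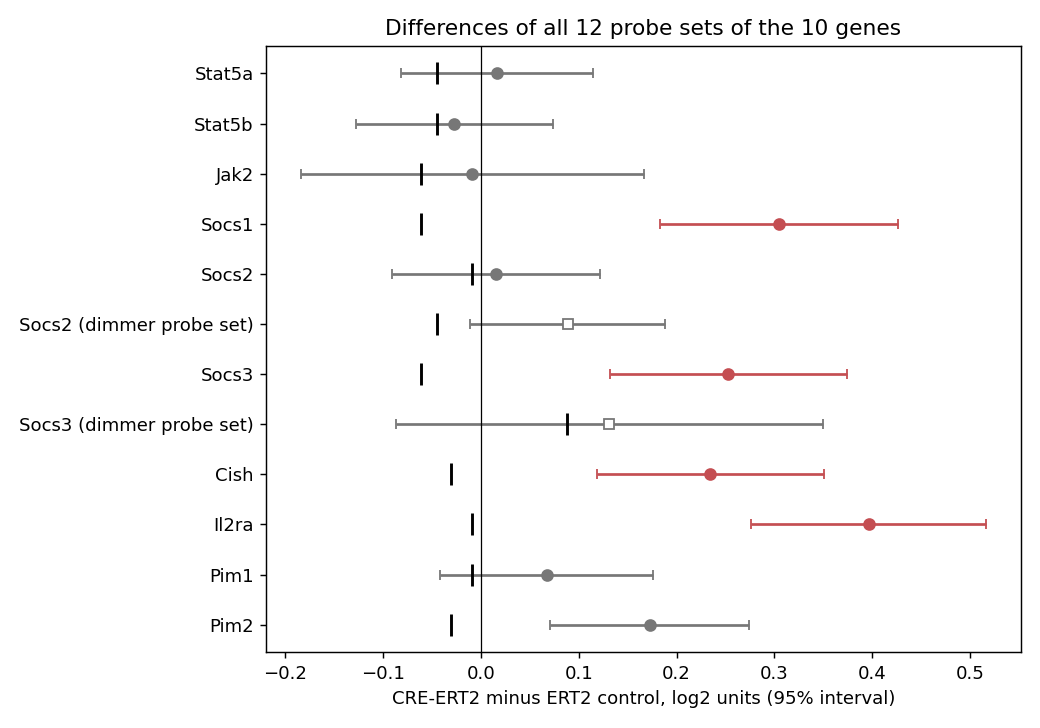
Difference between the group means, CRE-ERT2 minus control, in log2 units for all 12 probe sets, with 95% intervals from the limma fit. Red marks an adjusted p under 0.05, open squares are the dimmer probe sets, and short black bars give the median difference of genes of like brightness. The intervals of Socs1, the brighter Socs3 probe set, Cish, Il2ra and Pim2 lie above 0, although Pim2 did not pass. Those of Stat5a, Stat5b, Jak2, Pim1, both Socs2 probe sets and the dimmer Socs3 probe set include 0.

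Counted together, 4 of the 10 genes rose, 0 fell and 6 did not pass limma's test (at an unadjusted p under 0.05, 5 were higher and 0 lower). Over all genes tested 7.62% passed, 3.50% as higher and 4.13% as lower. At an unadjusted limma p under 0.05, 2842 of the 14953 genes tested were higher and 2151 lower. Groups did not overlap for 5 of the 10 genes, each higher in the CRE-ERT2 arrays. The same held for 38.5% of all genes, 20.7% in the upward direction and 17.7% in the downward direction. The median log2 difference of the 10 genes was 0.12, against 0.026 over all genes. All 10 passed the brightness filter. By role, 3 of 4 feedback inhibitors and 1 of 3 other targets rose, and 0 of the 3 genes for the transcription factors and the kinase passed. As the genes were chosen with earlier results of these arrays known, these counts are a description.

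**Figure D3:**
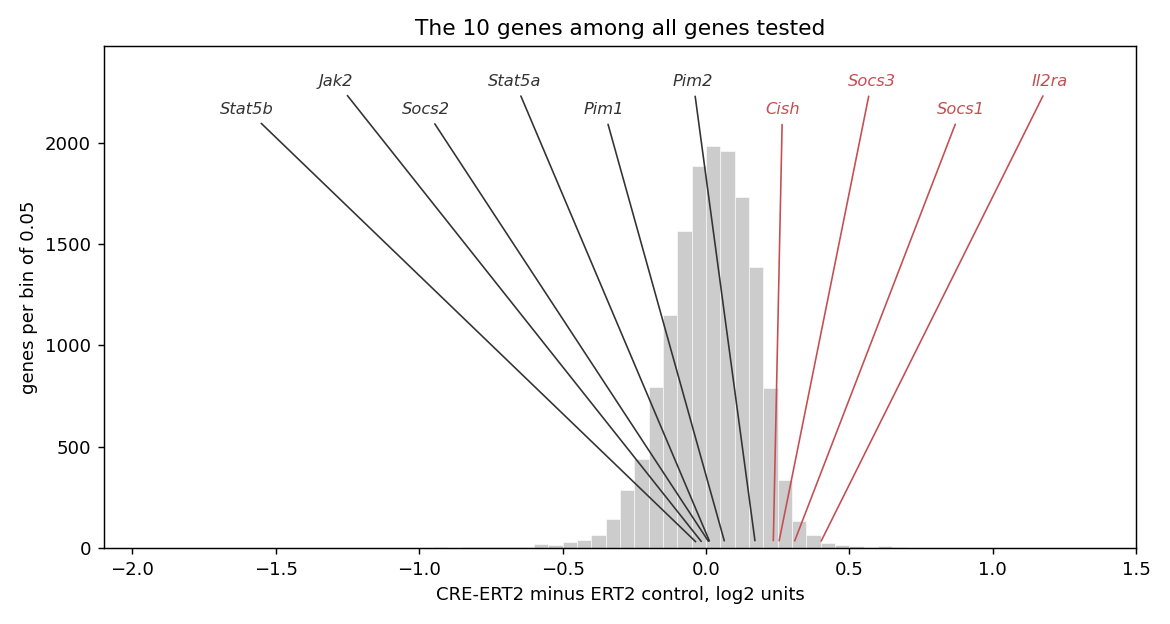
Distribution of the log2 difference, CRE-ERT2 minus control, over all 14953 genes tested (grey bars, genes per bin of 0.05), with lines from each of the 10 gene names to its value. Socs1, Socs3, Cish and Il2ra (red) lie in the upper tail between 0.23 and 0.40, and the other 6 lie between -0.027 and 0.17.

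The wider JAK-STAT pathway was described with 5 further lists, 86 genes in all, of which 77 had a probe set of their own and 63 were bright enough to test. Of these, 4 rose, 5 fell and 54 did not pass, so that 14.3% passed against 7.62% of all genes tested. By list the share was 21.4% (receptors), 0% (ligands), 10% (kinases and STAT factors), 5.56% (other inhibitors) and 21.1% (other targets). As the lists were chosen with earlier results of these arrays known, these shares are a description. The median difference was 0.024, close to that of all genes. Among 14 cytokine receptor genes tested, 1 rose, 2 fell and 11 did not pass (median 0.061). Il4ra, the interleukin-4 receptor alpha chain, had log2 values of 10.21, 10.21 and 10.19 in the controls and 9.68, 9.79 and 9.82 in the CRE-ERT2 arrays. That is a fall without overlap (-0.44 ± 0.050, SE; adjusted p = 0.00456), and it held with each array left out (0.00756 to 0.0348). Il21r, the interleukin-21 receptor, fell by 0.24 ± 0.057 (adjusted p = 0.0413), and Il15ra, the interleukin-15 receptor alpha chain, rose by 0.25 ± 0.053 (0.0329). With arrays left out, Il21r passed only without CRE-ERT2 array 3 (0.0223, against 0.0606 to 0.166 without each other array). Il15ra passed without CRE-ERT2 array 3 or control array 2 (0.0321 and 0.0464, against 0.0516 to 0.149). The interleukin-7 receptor gene Il7r, the main input to STAT5 in normal pre-B cells, was bright. It was lower without overlap by a small difference of -0.038 that did not pass (limma adjusted p = 0.528). Of 11 cytokine ligand genes 9 were too dim to test, and the other 2, Gh and Osm, had differences of -0.074 and -0.033 (limma adjusted p = 0.393 and 0.663; 0 below an unadjusted p of 0.05).

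Among 10 kinases and other STAT factors, 1 rose, 0 fell and 9 did not pass (median 0.082). Stat2, which carries interferon signals, had log2 values of 10.41, 10.41 and 10.40 in the controls and 10.69, 10.59 and 10.62 in the CRE-ERT2 arrays (0.23 ± 0.046, adjusted p = 0.0310). It passed without CRE-ERT2 arrays 2 or 3 (0.0391 and 0.0291) but not without any other array (0.0690 to 0.138). Stat3, which neighbours Stat5a on chromosome 11, and Stat6, the factor downstream of the interleukin-4 receptor, had differences of -0.0036 and 0.0035 (adjusted p = 0.965 and 0.964). The mouse genes of the fusion partners were both higher without overlap and did not pass: Bcr with 0.21 ± 0.056 (adjusted p = 0.0557; 0.22 on its dimmer probe set) and Abl1 with 0.10 ± 0.043 (0.141). How far a transforming BCR-ABL1 transcript adds to these probe sets was not tested.

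Of 18 other inhibitors of JAK-STAT signalling, none rose, 1 fell and 17 did not pass limma's test. At an unadjusted limma p under 0.05, 1 was higher and 1 lower, against 2842 and 2151 of all 14953 genes tested. The gene that fell was Ptpn6, which encodes the phosphatase SHP1, with 11.85, 11.79 and 11.79 in the controls and 11.53, 11.62 and 11.62 in the CRE-ERT2 arrays (-0.22 ± 0.048, adjusted p = 0.0375). Ptpn6 passed only without CRE-ERT2 array 3 among the fits with an array left out (0.0310, against 0.0583 to 0.162). The list's median was -0.039, and the SOCS genes outside the STAT5 circuit, Socs4, Socs5, Socs6 and Socs7, had differences of -0.085, 0.066, -0.016 and -0.084, none of which passed. Sh2b3, whose protein LNK restrains JAK2, was higher without overlap at 0.17 and missed the threshold (adjusted p = 0.0501).

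Among 19 other genes reported as STAT5 targets, 2 rose, 2 fell and 15 did not pass (median 0.050). Ccnd1, which encodes cyclin D1, had log2 values of 10.86, 10.82 and 10.81 in the controls and 9.99, 10.01 and 9.94 in the CRE-ERT2 arrays. This fall (-0.85 ± 0.044, SE; adjusted p = 1.09e-04) was larger in size than the change of any of the 10 genes and held with each array left out. Igf1, a growth factor gene that STAT5 controls in liver, had 9.52, 9.53 and 9.44 in the controls and 10.22, 10.05 and 10.16 in the CRE-ERT2 arrays. Its rise (0.64 ± 0.057, adjusted p = 0.00167) likewise held with each array left out. Myc fell by 0.22 ± 0.042 (adjusted p = 0.0259), and Id2, whose protein holds E proteins off DNA, rose by 0.41 ± 0.088 (0.0347). Myc passed only without CRE-ERT2 array 3 (0.0250, against 0.0517 to 0.129), and Id2 only without CRE-ERT2 arrays 2 or 3 (0.0252 and 0.0385, against 0.0649 to 0.130). The survival genes Bcl2l1, Mcl1 and Bcl2 had differences of 0.050, -0.018 and -0.044, and the cyclin genes Ccnd2 and Ccnd3 had 0.084 and 0.078. None of these passed, though the groups did not overlap for Bcl2 (lower) and Ccnd2 (higher). Reported STAT5 targets thus held members that moved both ways, as did the genes tested as a whole.

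**Figure D4:**
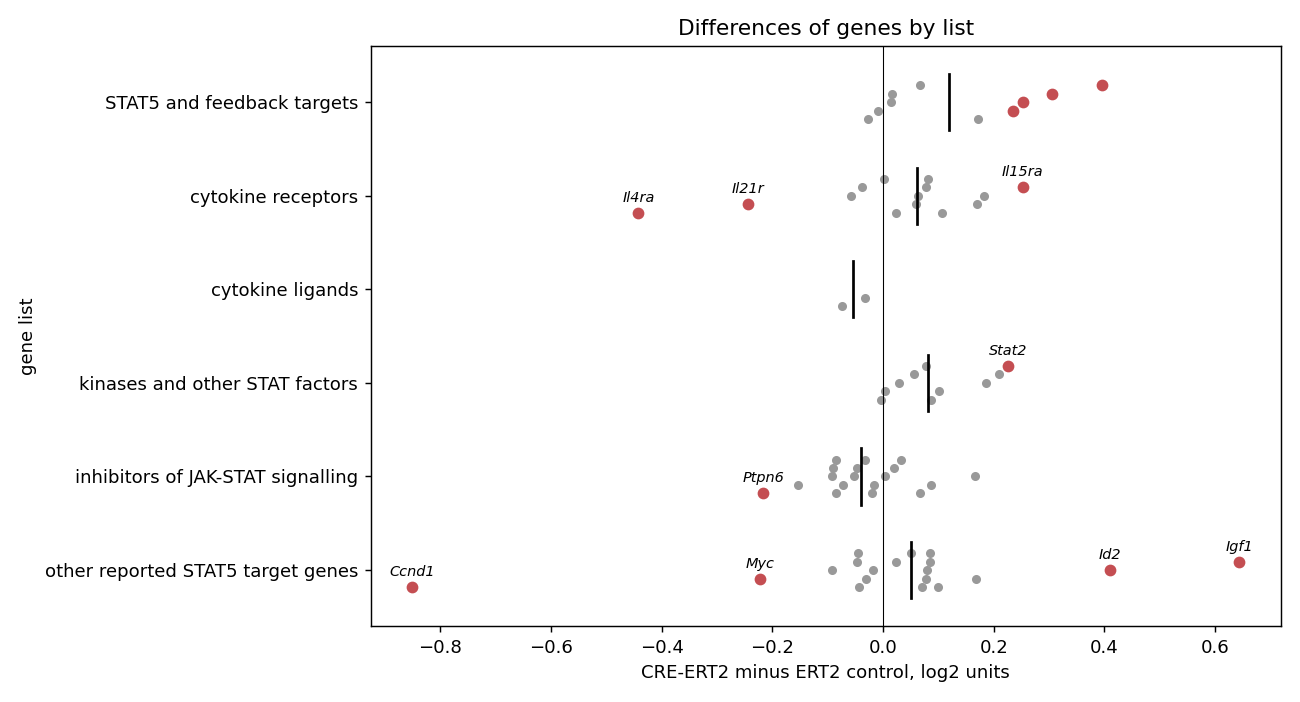
Log2 difference, CRE-ERT2 minus control, of each tested gene of the STAT5 circuit (top line) and of 5 further JAK-STAT lists; red points passed at an adjusted p under 0.05, grey points did not, and black bars are list medians. The top line has red points on the upper side and none on the lower side, and the receptor and other target lists have red points on both.

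In the genome order of the RefSeq table, the genes next to the 10 were examined for changes of their own. Of 18 neighbouring protein-coding genes, all tested, 2 passed: Rcl1, beside Jak2, fell by 0.22 (adjusted p = 0.0412), and Il15ra, beside Il2ra on chromosome 2, rose as given above. Rbm17, on the other side of Il2ra, had a difference of -0.13 (adjusted p = 0.143) and Fbh1, beyond Il15ra, one of -0.081 (0.247). Of 20 genes at the second position from the 10, all tested, 1 passed: 6430571L13Rik, near Cish on chromosome 9, rose by 0.28 ± 0.056 (SE; limma adjusted p = 0.0287). Ghdc and Stat3 count in both the 18 and the 20, and over all genes tested 7.62% passed. The receptor genes that fell, Il4ra and Il21r, are also neighbours, on chromosome 7. Nsmce1 and Gtf3c1, on either side of that pair, had differences of -0.20 and 0.18 and did not pass (adjusted p = 0.0740 and 0.0600).

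The genes most like Il2ra in their pattern over the 6 arrays were Cerk, Hivep3, Mrtfb, Tmem132e and Wdfy3. Likeness was measured as the root-mean-square distance between log2 values centred on each gene's mean, among 14952 other genes, and ran from 0.021 for Cerk to 0.037 for Wdfy3. All 5 shared with Il2ra the highest value on CRE-ERT2 array 1 and the highest control value on control array 2, Wdfy3 and Tmem132e included. Cerk encodes ceramide kinase, and its difference was 0.36 ± 0.056 (SE; limma adjusted p = 0.0140). As Il2ra had the smallest p of the 10 genes, similar genes had to differ between the groups too.

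**Figure D5:**
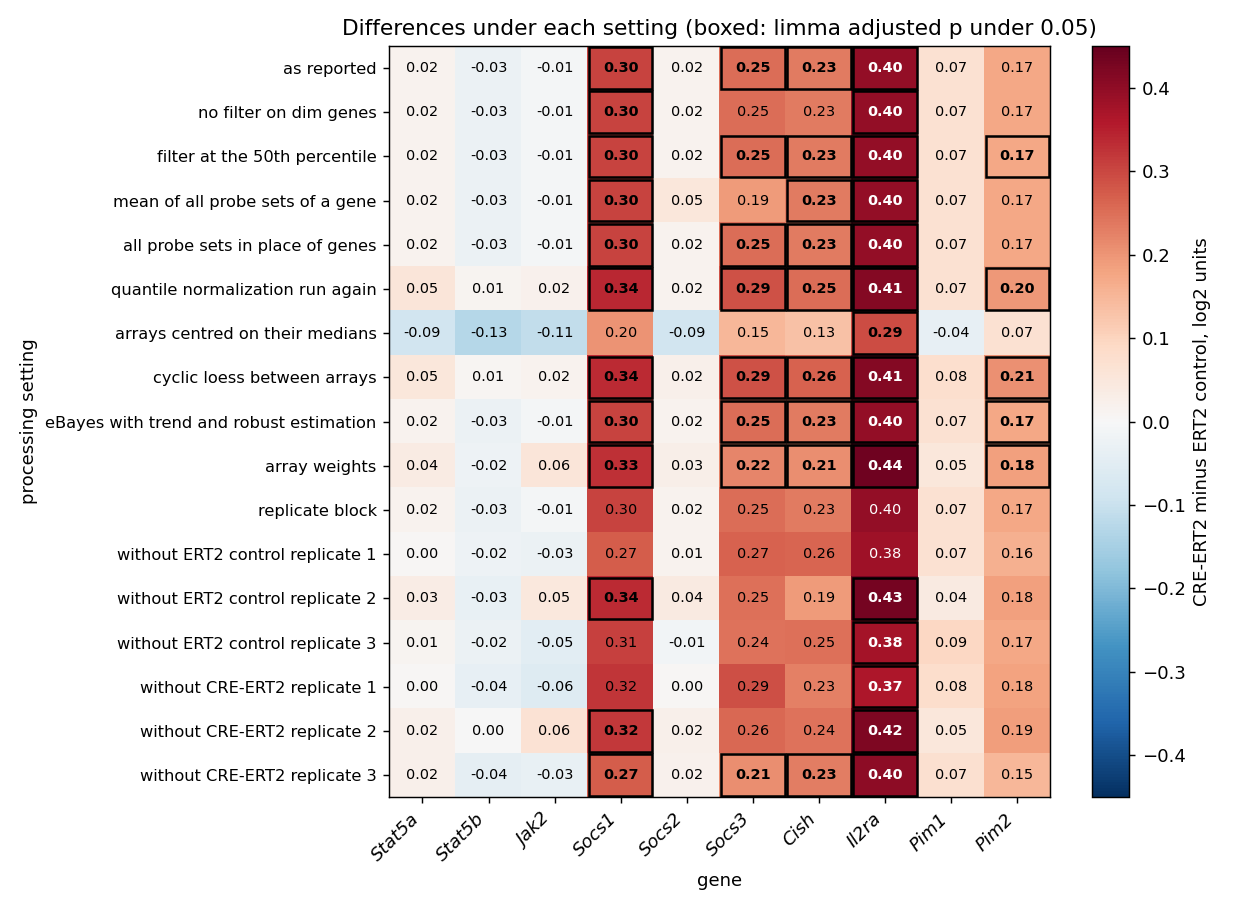
Log2 difference of each of the 10 genes (columns) under each processing setting (rows), coloured from blue (lower in CRE-ERT2) to red (higher); boxes mark a limma adjusted p under 0.05. Il2ra is boxed in all settings but the replicate block and the fit without control array 1, and the columns of Socs1, Socs3, Cish, Il2ra and Pim2 hold no negative value.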

How the data were processed

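Transcripts were measured on 6 Affymetrix arrays for mouse, 3 per group, with groups and replicate numbers taken from the labels. The deposited values are log2 values, 1 per probe set and array; the submitters' processing notes name RMA (background correction, normalization and summarization of probes) and Partek 6.5, with no settings. A genome build was not given in the sources used here. The precision is set by the number of arrays, 3 per group. Probe sets were named through the platform annotation: of 35556, 21789 had 1 symbol, 1621 had several and 12146 were not named here. Each gene was represented by its brightest probe set. Genes with a mean below the 25th percentile (7.35) were left out, which left 14953.

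The test was that of limma 3.58.1 under R 4.3.3 (lmFit, then eBayes, over all genes, two-sided, CRE-ERT2 minus control, no covariate), with Benjamini-Hochberg adjustment over all genes and a threshold of 0.05. Intervals are 95% and SEs are moderated. When this comparison was tested on simulated data for 14953 genes, 87% of 100 genes changed by 0.5 and 100% of 100 changed by 1 (log2) were recovered, with 12 false calls. Changes below 0.5, the size of most changes given here, were not simulated. Members and lists were chosen with earlier results of these data known. Named genes were the members, Inpp5d, Abl1, Bcr, every list gene that passed or else up to 4 with the smallest p, and the 5 genes most like the member with the smallest p; other genes named (Il7r, Stat3, Stat6, Socs4 to Socs7, Sh2b3, Bcl2l1, Mcl1, Bcl2, Ccnd2, Ccnd3, markers and neighbours) were chosen after their values were seen, as were the ratios within arrays. Alternatives varied the filter, probe sets, scaling, eBayes, array weights, the replicate block and the arrays. Promoters came from RefSeq (GRCm38.p6). Tables and figures used Python 3.11.15, pandas 2.3.3 and matplotlib 3.10.9.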

Additional observations from a re-analysis of the deposited data

How the results depend on the processing

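The 4 rises among the 10 genes were 2 without the filter on dim genes, 1 with arrays centred on their medians, 1 at a threshold of 0.01 and 0 to 4 with an array left out. They were 3 with the mean of a gene's probe sets. With Pim2 added, they were 5 with the filter at the 50th percentile, quantile normalization, loess, trend and robust estimation, or array weights. The block on replicate number gave 0 by limma, with Il2ra at an adjusted p of 0.0506. At an unadjusted limma p under 0.05 the block gave 5, as in the full fit, against 3960 of all 14953 genes tested. Deviations of same-numbered arrays correlated at 0.16, 0.024 and -0.20, so the numbers were not taken to pair arrays, and control arrays 2 and 3 did not correlate best with their own number. The 9 calls among the pathway genes were 3 without the filter, 14 with array weights, 3 with the block, 3 at 0.01 and 3 to 11 with an array left out. The 1140 calls over all genes were 437 without the filter, 3020 with centring (7.38% of them higher, in place of 45.9%), 2147 with trend and robust estimation, 3993 with array weights, 147 with the block, 143 at 0.01 and from 116 without control array 1 to 3042 without CRE-ERT2 array 3. Fits with fewer arrays or with the block have fewer degrees of freedom, and centring lowered the difference of each gene by the same amount. Without the filter the differences stayed the same and the adjustment ran over 19938 genes. The cause of the other changes was not tested. Differences near 0 turned sign: with centring Stat5a was -0.086, Socs2 -0.087, Pim1 -0.035 and Abl1 -4.62e-04; after quantile normalization Stat5b was 0.014 and Jak2 0.018; after loess they were 0.0078 and 0.017; and with array weights Jak2 was 0.055. With an array left out, Jak2 ranged from -0.056 to 0.064, Socs2 from -0.011 to 0.042 and Osm from -0.060 to 1.67e-04. Socs1, Socs3, Cish, Il2ra and Pim2 were positive in each setting, and the 5 ratios within arrays kept their sign in each setting tried.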
